A study of Mus musculus with 8 samples.

Results

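Drosha-independent miRNAs are short regulatory RNAs that reach Dicer or Argonaute without the usual first cut of a hairpin by the nuclear enzyme Drosha. The class was taken as a list of 8 mature miRNAs from 6 hairpins, and 5 of the 8 had a row among the 422 miRNAs of the count table. These were mmu-miR-1224-5p, mmu-miR-1981-5p, mmu-miR-320-3p, mmu-miR-484 and mmu-miR-1839-5p (written below without the mouse prefix mmu), whereas mmu-miR-877-5p, mmu-miR-877-3p and mmu-miR-1839-3p were not analysed here. Levels came from small RNA libraries of the hippocampus of 4 BTBR and 4 B6 mice, with 1 mouse per library. BTBR is the inbred strain BTBR T+ Itpr3tf/J, studied as a mouse model of autism, and B6 is the inbred control strain C57BL/6J. All were adult males aged 12 weeks, and the hippocampus was punched from brain slices, so that any neighbouring tissue in the punch was sequenced too. Since 1 inbred strain stood for each condition, a difference linked to the autism-like behaviour and any other difference between these strains cannot be told apart.

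In the canonical pathway, Drosha with its partner Dgcr8 releases a hairpin from a long transcript, and Dicer trims the hairpin to the mature miRNA. A mirtron is instead a short intron that the spliceosome cuts out whole, so that the splice sites set the ends of the hairpin, and it is debranched and passed to Dicer. In a tailed mirtron only the 3′ or the 5′ end of the hairpin is a splice site. Other precursors are the capped starts of short RNA polymerase II transcripts, as described for miR-320 and miR-484, or are cut from structured RNAs such as the small Cajal body RNAs, which guide modification of the spliceosome's RNAs. The members therefore share the step they bypass rather than a promoter, a host gene or a sequence.

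The mature sequences of 4 of the 5 members were found in the RefSeq table for GRCm38.p6, and they are shown because the seed decides which transcripts a miRNA can pair with. The capitals mark the seed, bases 2 to 8 from the 5′ end. miR-320-3p is named only.
miR-1224-5p: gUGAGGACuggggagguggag
miR-1981-5p: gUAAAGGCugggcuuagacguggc
miR-484: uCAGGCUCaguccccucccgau
miR-1839-5p: aAGGUAGAuagaacaggucuug
No seed was shared among these 4, and none was found in another of the 367 miRNAs of the count table that matched the RefSeq table. The G+C content was 66.7% in miR-1224-5p, 63.6% in miR-484 and 58.3% in miR-1981-5p, against a median of 47.6% over the 367, and miR-1839-5p lay below that median at 40.9%. Across the 367 miRNAs, which are not independent replicates, G+C content and the log2 difference between strains had a Spearman correlation of −0.0079.

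The annotation was used to check the listed routes of biogenesis, since dependence on Drosha was not measured. The hairpin of miR-1224 spans 20604452 to 20604536 of chromosome 16 (GRCm38, plus strand) and fills an intron of 85 bases of Vwa5b2 (transcript Vwa5b2-201), which encodes a protein with a von Willebrand factor A domain. The hairpin of miR-1981 lies on chromosome 1 from 184822407 to 184822488, on the minus strand, and fills an intron of 82 bases of Marc2 (transcript Marc2-201), which encodes a mitochondrial molybdenum enzyme. In both, 0 bases separate the hairpin from either end of the intron, and the mature 5p strand starts at base 1 of the intron. The hairpin ends show this, with the splice donor and acceptor bases in capitals.
miR-1224 hairpin, first bases: GUgaggacuggg
miR-1224 hairpin, last bases: uucucuccucAG
miR-1981 hairpin, first bases: GUaaaggcuggg
miR-1981 hairpin, last bases: ggccuuugacAG
Of 264 hairpins of the measured miRNAs that could be placed from the RefSeq table, 143 lay in an intron and 4 (1.52%) had both ends within 5 bases of the ends of that intron. miR-1224 and miR-1981 were among the 4, and the others were miR-6944 in Dbn1, the gene for the actin-binding protein drebrin, and miR-7080 in Cpne7, a copine. miR-3102, placed by GENCODE alone, was not counted among the 264, and its hairpin fills an intron of Arhgef17 in the same way. The hairpin of miR-877, on chromosome 17 from 35960730 to 35960814 on the minus strand, also fills an intron of 85 bases, in Abcf1.

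**Figure D1:**
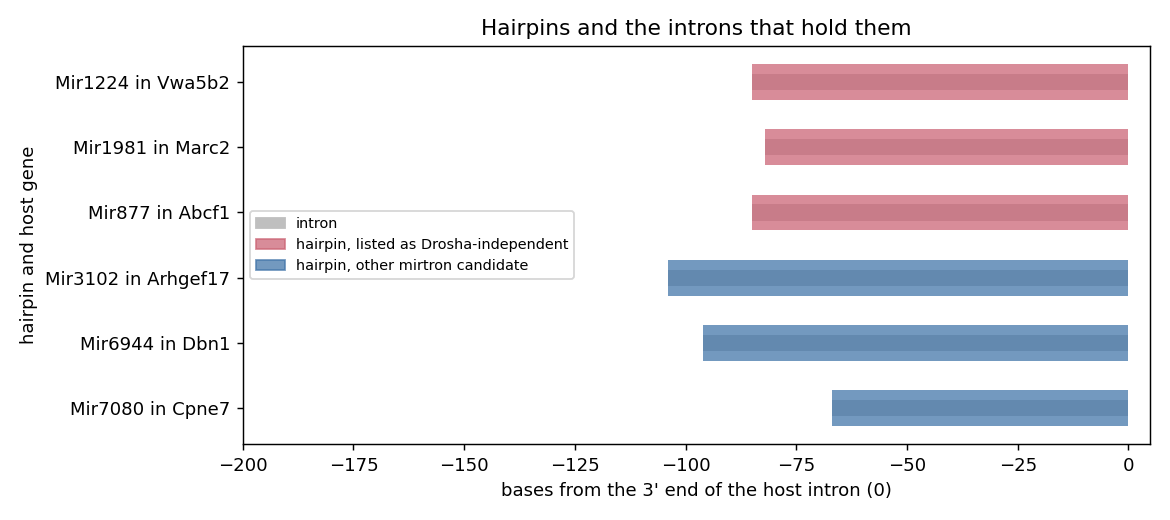
Hairpins (coloured bars) and the GENCODE introns that hold them (narrower grey bars, seen as the darker band through each hairpin), drawn to scale in bases from the 3′ end of the intron, with the host gene beside each hairpin. The hairpins of miR-1224 and miR-1981 cover their introns of 85 and 82 bases from end to end, and those of the other mirtron candidates drawn also cover theirs.

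The other members sat outside such introns. The hairpin of miR-320 lies on chromosome 14 from 70443510 to 70443591, on the plus strand, in no annotated host gene and starting 63 bases from the start of Polr3d, a subunit gene of RNA polymerase III that is transcribed the other way. The hairpin of miR-484 lies on chromosome 16 from 14159626 to 14159692, on the plus strand, overlapping Marf1 on the opposite strand and ending 3583 bases before the annotated start of Nde1, which encodes a centrosomal protein of neuronal progenitors. The hairpin of miR-1839 lies on chromosome 7 from 81529916 to 81529988, on the plus strand, inside an intron of the non-coding gene 2900076A07Rik, with 388 bases before it and 1222 after it. It shares 66 bases with an annotated small Cajal body RNA of 127 bases, from 81529855 to 81529981, so reads from the mature miRNA and fragments of that RNA cannot be told apart in the table.

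The libraries held between 5078301 and 5792967 reads counted on miRNAs in B6 mice and between 2247482 and 7904990 in BTBR mice, and members were covered by 51 to 7478 reads per library. The 4 neuronal miRNAs listed as tissue markers (miR-124-3p, miR-9-5p, miR-128-3p and miR-132-3p) were measured in every mouse, with summed levels of 50893 to 79104 CPM (counts scaled to a common library total after TMM normalization) in B6 and 59726 to 72224 CPM in BTBR mice. The 7 choroid plexus miRNAs summed to 5164 to 39305 CPM in B6, highest in replicate 1, and to 5125 to 9393 CPM in BTBR mice. The 4 red blood cell miRNAs summed to 303 to 853 CPM among B6 and 531 to 1371 CPM among BTBR mice, the 2 oligodendrocyte miRNAs to 2208 to 4221 and 2235 to 2868 CPM, and the liver miRNA miR-122-5p lay between 5.37 and 22.4 CPM in all mice. Every choroid plexus miRNA had at least 1 read in each library. The part of these lists in the differences below was not tested. In whole tissue, fewer cells of a type and less RNA per cell cannot be told apart.

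The 5 members did not move together between the strains. In CPM after TMM, miR-1224-5p was higher in every BTBR mouse than in any B6 mouse, and miR-1981-5p and miR-484 were lower in every BTBR mouse. miR-320-3p and miR-1839-5p had lower means in BTBR with overlapping mice. The TMM factors ran from 0.872 to 1.18 in B6 and from 0.991 to 1.15 in BTBR mice. By reads over the library total alone, the strains overlapped for miR-484 and were separate for miR-320-3p, with the other members as in CPM. None of the 5 passed an adjusted p of 0.1 in the quasi-likelihood F test of edgeR, with p adjusted by the Benjamini-Hochberg method over all 422 miRNAs, where 1.66% of all miRNAs passed, 1.18% with BTBR higher and 0.474% with BTBR lower. Before adjustment 3 of the 5 had a p under 0.05, against 10.9% of all miRNAs. The DESeq2 Wald test and edgeR's exact test each called the same 2 members, miR-1224-5p and miR-1981-5p, against 4.98% and 3.79% of all miRNAs, and limma-voom called 0 against 1.42%. In CPM the strains did not overlap in 3 of the 5, 1 higher and 2 lower in BTBR, against 6.64% of all miRNAs in either direction and 3.32% in each. In order of abundance the members ran miR-320-3p, miR-1839-5p, miR-484, miR-1224-5p and miR-1981-5p in all 8 libraries. Neighbours in this order were separated in each strain without overlap, except miR-320-3p and miR-1839-5p in B6 mice. Read counts of different miRNAs also depend on how well each is ligated into the library, so this is an order of reads.

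**Figure D2:**
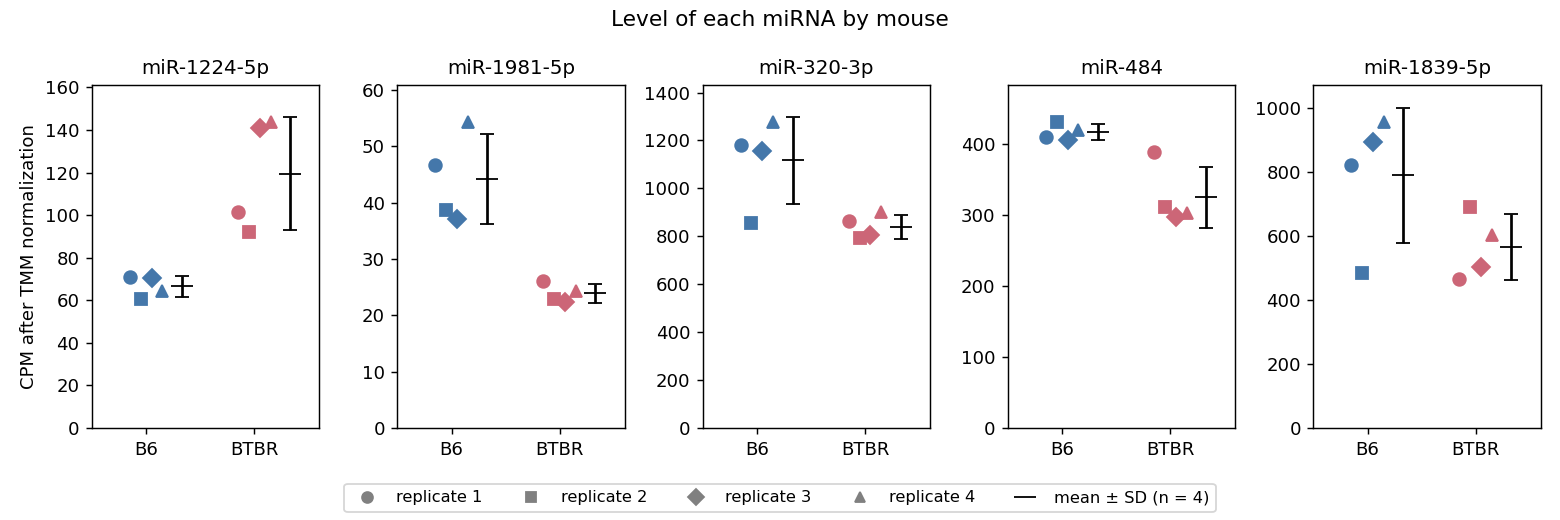
CPM after TMM normalization (y axes, each from 0) of the 5 members in each mouse of both strains, with a symbol for each replicate and the mean ± SD (n = 4) as bars. miR-1224-5p sits between 60.6 and 70.8 CPM for B6 and between 92.0 and 144 CPM for BTBR mice, whereas miR-1981-5p sits between 37.1 and 54.4 CPM for B6 and between 22.3 and 26.1 CPM for BTBR mice.

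miR-1224-5p, the mirtron of Vwa5b2, had 70.8, 60.6, 70.6 and 64.3 CPM in B6 replicates 1 to 4 and 102, 92.0, 141 and 144 CPM in BTBR replicates 1 to 4. All 4 BTBR mice lay above all B6 mice, and the BTBR mice were spread more widely, 120 ± 26.6 CPM (SD, n = 4) against 66.6 ± 5.03 CPM. The log2 difference was 0.85 (standard error 0.22, 95% interval 0.36 to 1.34), a 1.80-fold higher fitted level, with an edgeR adjusted p of 0.132. By p it stood in place 9 of the 422 miRNAs, and the exact permutation test on log2(CPM + 0.5) over the 70 assignments of the mice gave p = 0.0286, two-sided, the smallest value that 4 against 4 mice allow. With each mouse left out in turn the edgeR adjusted p ran from 0.0469 to 0.444, and it was under 0.1 in 1 of the 8 fits, the one without BTBR replicate 2, the BTBR mouse nearest to B6.

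miR-1981-5p, the mirtron of Marc2, went the other way. It had 46.6, 38.6, 37.1 and 54.4 CPM in B6 replicates 1 to 4 and 26.1, 22.9, 22.3 and 24.3 CPM in BTBR replicates 1 to 4. All 4 BTBR mice lay below all B6 mice, and here the BTBR mice were the more uniform strain, 23.9 ± 1.70 CPM (SD, n = 4) against 44.2 ± 7.96 CPM. The log2 difference was −0.88 (standard error 0.24, 95% interval −1.41 to −0.36), a 1.85-fold lower fitted level, with an edgeR adjusted p of 0.138 (exact permutation test, p = 0.0286). With each mouse left out in turn the edgeR adjusted p ran from 0.118 to 0.385. It was the least abundant member, with 51 reads in BTBR replicate 2 and 243 in B6 replicate 1 at the extremes.

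The capped or short precursors, miR-320-3p and miR-484, had small differences with BTBR lower. miR-320-3p had 1180, 856, 1154 and 1278 CPM in B6 replicates 1 to 4 and 863, 795, 804 and 900 CPM in BTBR replicates 1 to 4. B6 replicate 2 lay among the BTBR mice, and the other B6 mice lay above them. By reads over the library total alone, all B6 mice lay above the BTBR mice. The log2 difference was −0.41 (standard error 0.18, 95% interval −0.81 to −0.0089, edgeR adjusted p = 0.451), the means being 1117 ± 182 CPM for B6 against 840.2 ± 49.8 CPM for BTBR (exact permutation test, p = 0.0857, n = 4 per strain). miR-484 had 410.5, 431, 405 and 420.2 CPM in B6 replicates 1 to 4, with a coefficient of variation of 2.75% after TMM. In BTBR replicates 1 to 4 it had 388, 311, 297 and 303 CPM. After TMM no BTBR mouse reached a B6 mouse, although replicate 1 stood apart from the other BTBR mice and close to B6. By reads over the library total alone, BTBR replicate 1 (1890 of 4690835) lay above B6 replicates 1 (2139 of 5792967), 3 and 4. The B6 mice were then spread more widely, with replicate 2 (2579 of 5078301) the highest. The log2 difference was −0.36 (standard error 0.18, 95% interval −0.75 to 0.03, edgeR adjusted p = 0.521), the means being 417 ± 11.5 CPM for B6 against 325 ± 42.8 CPM for BTBR (exact permutation test, p = 0.0286, n = 4 per strain).

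miR-1839-5p, which shares its locus with a small Cajal body RNA, had 822, 486, 896 and 959 CPM in B6 replicates 1 to 4 and 465, 693, 504 and 605 CPM in BTBR replicates 1 to 4. B6 replicate 2 was lower than 3 of the 4 BTBR mice, so the strains overlapped. The log2 difference was −0.48 (standard error 0.24, 95% interval −1.01 to 0.05, edgeR adjusted p = 0.521), the means being 791 ± 210.4 CPM for B6 against 567 ± 103 CPM for BTBR (exact permutation test, p = 0.143, n = 4 per strain). After TMM, B6 replicate 2 also had the lowest summed neuronal miRNAs of the 8 libraries, at 50893 CPM, of which miR-9-5p made up 31206 CPM. Single neuronal miRNAs differed there, as miR-9-5p and miR-128-3p were lowest of the 8 libraries whereas miR-124-3p, at 1707 CPM, was the highest of the B6 mice. The TMM factor of B6 replicate 2, 1.18, was the highest of the 8 and lowers all its CPM values. By reads over the library total alone, B6 replicate 1 had a lower neuronal sum, and B6 replicate 2 was not the lowest for miR-9-5p or miR-128-3p. Without B6 replicate 2 the log2 difference was −0.63 for miR-1839-5p and −0.49 for miR-320-3p, and neither passed the threshold, each with an adjusted p of 0.185 in the edgeR test.

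Over the 5 members the median log2 difference was −0.41, with 4 below 0 and 1 above, beside a median of 0.02 and 49.1% below 0 over all 422 miRNAs. Scaling by library size only moved the median of all miRNAs by 0.13 on the log2 scale and that of the members to −0.24, and 4 members were still below 0. By that scaling miR-1224-5p had a log2 difference of 1.01 and miR-1981-5p of −0.73. miR-320-3p had −0.24, miR-484 −0.22 and miR-1839-5p −0.30. The directions of the 5 members were as given under each of the 19 alternative fits. The range over members, from −0.88 to 0.85, was set by the mirtrons at its ends.

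**Figure D3:**
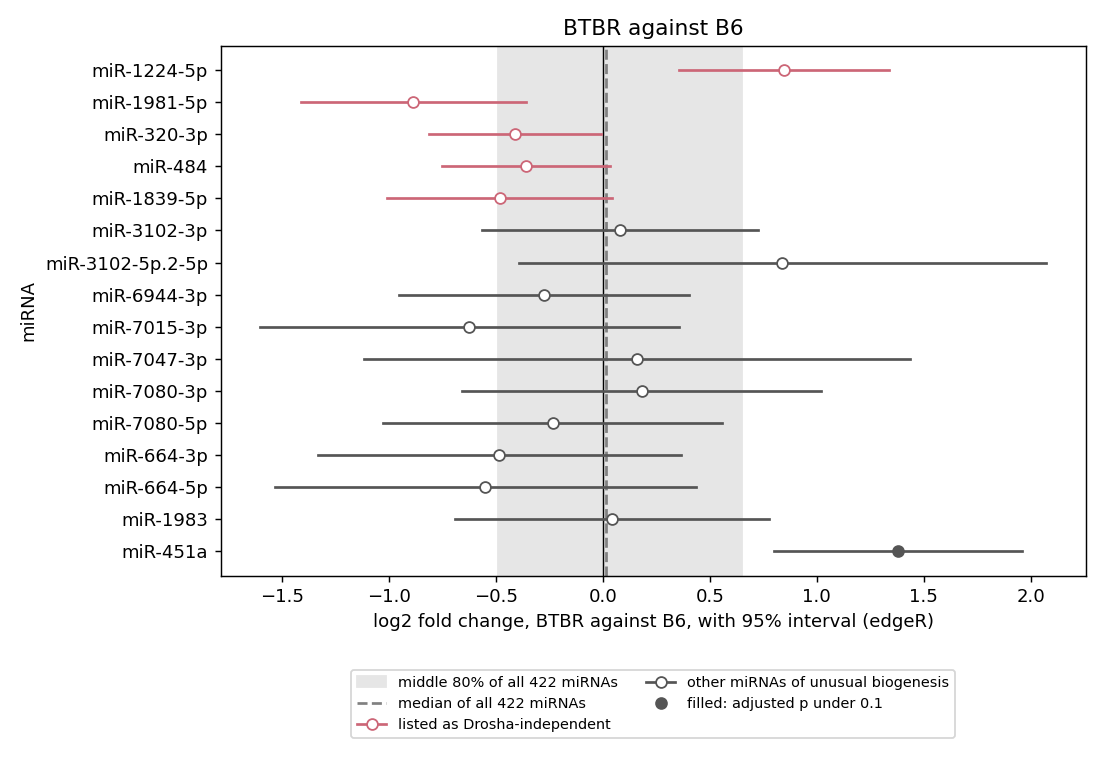
Log2 fold change of BTBR against B6 with its 95% interval from the edgeR fit (x axis) for the 5 members and the 11 other miRNAs of unusual biogenesis (y axis), over a grey band that holds the middle 80% of all 422 miRNAs, from −0.49 to 0.65. miR-1224-5p and miR-1981-5p lie outside the band on opposite sides, the other 3 members lie inside it below 0, and miR-451a is the miRNA drawn filled, with an adjusted p under 0.1.

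Ratios between members within a library were compared for all 10 pairs. The ratios per mouse are of reads and so are free of the scaling between libraries, whereas their log2 differences between strains were taken on log2(CPM + 0.5). The strains did not overlap in 6 of the 10, against 6.03% of the 88831 pairs that can be formed from the 422 miRNAs. All 6 held miR-1224-5p or miR-1981-5p, whose strains were already separate one by one, so the 10 pairs are not independent observations. miR-1224-5p entered 4 of the pairs, and in all 4 its share was higher in every BTBR mouse. Reads of miR-1224-5p per read of miR-1981-5p were 1.52, 1.57, 1.90 and 1.18 in B6 replicates 1 to 4 and 3.89, 4.02, 6.31 and 5.92 in BTBR replicates 1 to 4. No B6 mouse was above 1.90 and no BTBR mouse below 3.89. The mean log2 ratio of these mirtrons was higher in BTBR mice by 1.67 on log2(CPM + 0.5), and by 1.69 from the reads with no pseudocount.

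Among the 6 pairs without miR-1224-5p the strains were separate in 2. miR-1981-5p was lower in BTBR relative to miR-320-3p, with ratios of 0.0322 to 0.0452 in B6 and 0.0270 to 0.0303 in BTBR mice, and relative to miR-484, with 0.0896 to 0.129 in B6 and 0.0672 to 0.0803 in BTBR mice. The log2 differences of these ratios were −0.46 and −0.49. The 3 pairs among miR-320-3p, miR-484 and miR-1839-5p overlapped between the strains, with log2 differences of −0.03, 0.05 and 0.08, each below the spread between mice, whose SD within a strain was 0.18 to 0.48. The remaining pair, miR-1981-5p and miR-1839-5p, overlapped with a log2 difference of −0.41, which was −0.25 without B6 replicate 2.

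**Figure D4:**
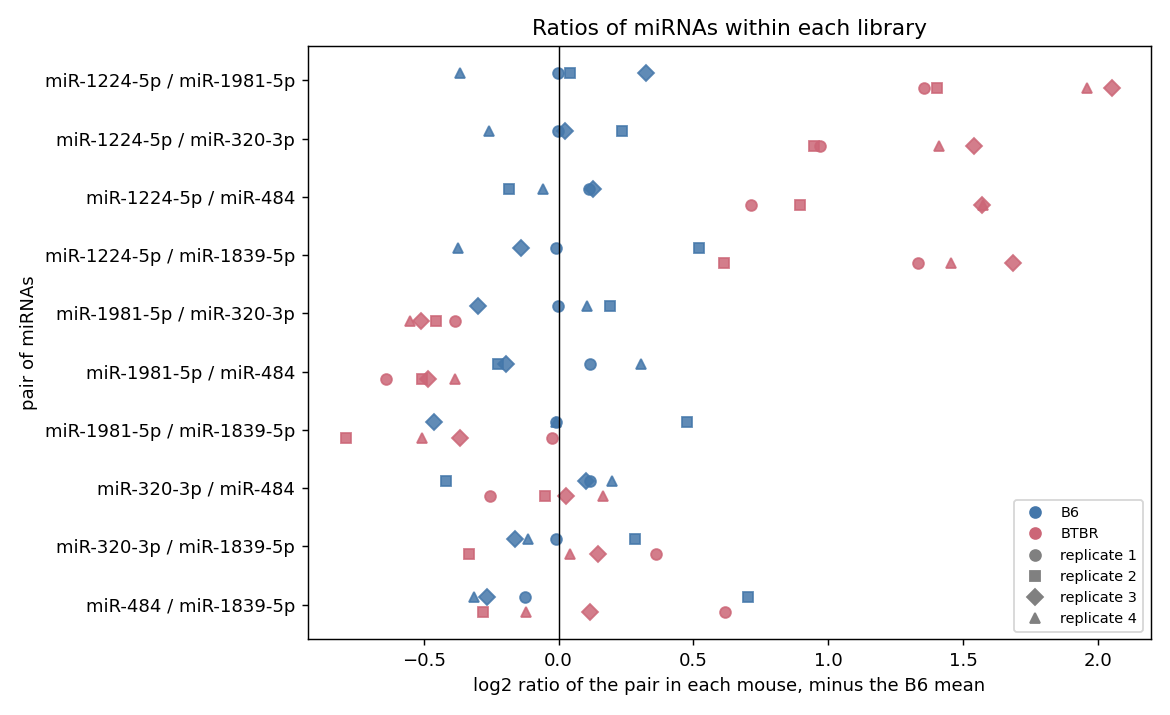
Log2 ratio of each pair of members in each mouse, minus the B6 mean of that pair (x axis), with a symbol for each replicate and a colour for each strain. In the 4 pairs with miR-1224-5p all BTBR mice lie to the right of the B6 mice, in 2 pairs with miR-1981-5p they lie to the left, and in the other 4 pairs the strains overlap.

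The members were also compared within the strains. After the strain mean was taken off, Pearson's r between members over the 8 libraries ran from −0.56 for miR-1224-5p with miR-484 to 0.77 for miR-320-3p with miR-1839-5p, with 0.66 for miR-1981-5p with miR-320-3p and −0.097 for the mirtrons miR-1224-5p and miR-1981-5p. The 0.77 rested on B6 replicate 2, the lowest B6 mouse for both miRNAs, and was −0.026 without it, while Spearman's coefficient over all 8 libraries was 0.55. With 1 mouse left out in turn, the −0.56 ran from −0.97, without BTBR replicate 2, to −0.44. The 0.66 ran from 0.46 to 0.92 and the −0.097 from −0.26 to 0.03. These are descriptions over libraries that share depth and composition, and leaving out a mouse was added here after the values were seen. By the same measure, the miRNAs most like miR-1224-5p were miR-495-3p (r = 0.89) and miR-6369 (r = 0.83), and those most like miR-1981-5p were miR-674-5p (r = 0.82) and miR-488-5p (r = 0.81). miR-320-3p was most like let-7i-5p (r = 0.92) and miR-30c-2-3p (r = 0.91), miR-484 most like miR-129-2-3p (r = 0.92) and miR-582-3p (r = 0.91), and miR-1839-5p most like miR-379-5p (r = 0.96) and miR-221-3p (r = 0.94). Each of these is the highest of 421 values over 8 libraries or next to it. Without B6 replicate 2 the r of miR-320-3p was 0.42 with let-7i-5p and 0.11 with miR-30c-2-3p, and without BTBR replicate 1 that of miR-484 was −0.066 with miR-129-2-3p and 0.50 with miR-582-3p. miR-6369 had 5 to 50 reads per library and miR-488-5p 8 to 30. No member was among the closest of another member.

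A list of 11 further miRNAs of unusual biogenesis was set beside the members. Of these, 1 passed the threshold, with BTBR higher, and 0 with BTBR lower, against 1.18% and 0.474% of all 422 miRNAs. The median log2 difference was 0.04. The miRNA that passed was miR-451a, which is cut by Argonaute2 in place of Dicer and is abundant in red blood cells. Its mean level was 80.9 ± 18.9 CPM for BTBR against 31.0 ± 6.60 CPM for B6 (SD, n = 4), a log2 difference of 1.38 with a standard error of 0.26 and an edgeR adjusted p of 0.0339. As background, its hairpin is cut by Drosha and bypasses Dicer.

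The other mirtron candidates gave 7 mature miRNAs from 5 hairpins. None of the 7 passed, against 1.66% of all miRNAs, with edgeR adjusted p between 0.642 and 0.944. Under an unadjusted p of 0.05 there were 0 of the 7, against 10.9% of all miRNAs, shares at which 7 miRNAs can give 0. Their median log2 difference was 0.08. miR-3102-3p, from an intron of 104 bases of Arhgef17 that its hairpin fills, was the most abundant of them, with 95.1 to 108 CPM among B6 and 59.6 to 163 CPM among BTBR mice. Its B6 mice lay within the range of the BTBR mice, and the log2 difference was 0.08 (95% interval −0.56 to 0.73). miR-6944-3p, from the Dbn1 intron, had 55.7 to 84.3 CPM among B6 and 37.1 to 88.0 CPM among BTBR mice, with a log2 difference of −0.27 (95% interval −0.95 to 0.40). Both strands of the miR-7080 hairpin were measured, and miR-7080-3p had a log2 difference of 0.18 and miR-7080-5p of −0.23, with both intervals across 0. The hairpin of miR-7015, in Smap2, ended with its intron but began 1063 bases after the intron's start, the layout of a tailed mirtron. The other candidates were measured at low depth. miR-3102-5p.2-5p, with 4 to 43 reads per library, had a log2 difference of 0.84 (95% interval −0.39 to 2.07), close in size to that of miR-1224-5p but with an interval across 0. miR-7015-3p and miR-7047-3p, each with 3 to 31 reads, had log2 differences of −0.62 (95% interval −1.60 to 0.35) and 0.16 (95% interval −1.12 to 1.43). miR-664-3p and miR-664-5p, whose hairpin overlaps the small nucleolar RNA Snora36b in an intron of Rab3gap2, had log2 differences of −0.48 and −0.55, and miR-1983, described as cut from a transfer RNA, had one of 0.04. None of these 3 passed the threshold.

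**Figure D5:**
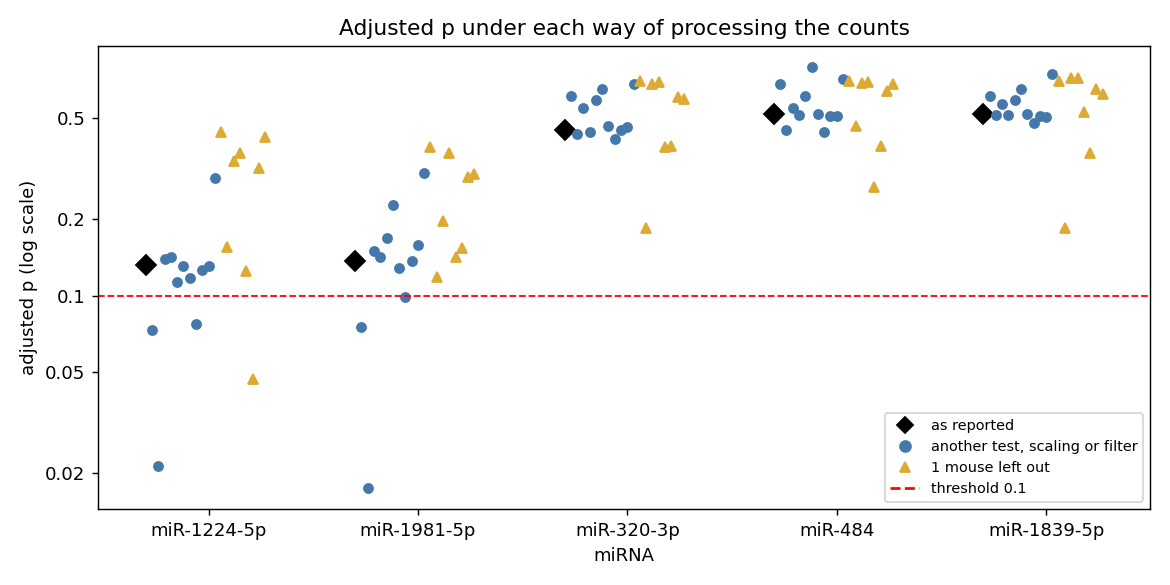
Adjusted p (y axis, log scale) of the 5 members (x axis) as reported, under other tests, scalings and filters, and with each mouse left out, with the threshold of 0.1 as a dashed line. miR-1224-5p falls below the line in 4 of 19 alternatives and miR-1981-5p in 3, while miR-320-3p, miR-484 and miR-1839-5p stay above it in all 19.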

How the data were processed

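Hippocampal small RNA of single mice was sequenced from Illumina TruSeq libraries. The authors removed adapters, mapped reads to GRCm38 with sRNAbench, which runs Bowtie, assigned those lying within miRBase annotations, and deposited whole-number counts per miRNA without normalization. The processing notes of the submitters list FastQC 0.11.2. No miRNA of the table was without reads in any library, and the counts carry no molecular identifiers. All 422 miRNAs were kept, normalized by TMM and compared by edgeR's quasi-likelihood test (R 4.3.3 with edgeR 4.0.16, also DESeq2 1.42.0 and limma 3.58.1) without covariates, with Benjamini-Hochberg adjustment over all miRNAs and the study's threshold of 0.1. Each standard error is the size of the log2 difference divided by the root of F. Exact permutation tests used log2(CPM + 0.5), and all are two-sided. Each mouse was 1 library and 1 replicate. No pair of libraries of the same strain was alike within counting noise (chi-square tests), as a library deposited again would be, and pairs across strains were not compared. Hairpins were placed with GENCODE M21, and plots were drawn with matplotlib 3.10.9.

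The members and lists were chosen with earlier results of these data known. The miRNAs named are the members, the further list, miRNAs sharing a member's seed, and the 2 most like each member. No per-sample column was left unused. Alternatives were edgeR's exact test, DESeq2, limma-voom, scaling by library size only, by upper quartile or by DESeq2 size factors, filterByExpr, a mean CPM of at least 10, identical miRNAs kept once, robust dispersions, a replicate block, a threshold of 0.05, ratios with no pseudocount, and each mouse left out. The host and intron layout of 1 hairpin of the further list are not reported here.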

Additional observations from a re-analysis of the deposited data

Results flagged for a closer look

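In 10 sets of 4 mice (5 members in each strain), 1 mouse stood apart from the rest of its strain by Dixon's ratio. This was BTBR replicate 1 for miR-484, at 388 CPM, where the gap to the nearest mouse was 0.854 of the strain's range, above the 95% critical value for 4 samples. Chance marks about 1 in 20 such sets. Without that mouse the log2 difference of miR-484 was −0.46, with an edgeR adjusted p of 0.268.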

How the results depend on the processing

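The number of miRNAs past the threshold, 7 as reported, was 16 by edgeR's exact test, 21 by DESeq2, 4 with library size only, 3 with the replicate block, 4 at a threshold of 0.05, 9 of 318 with a mean CPM of at least 10, and 3 to 13 with 1 mouse left out (13 without B6 replicate 2, 8 without BTBR replicate 2, 4 without BTBR replicate 1, 3 without BTBR replicate 3 or 4). The members past it, 0 as reported, were 2 by the exact test, by DESeq2 and with a mean CPM of at least 10, and 0 to 1 with 1 mouse left out (1 without BTBR replicate 2). For miR-1224-5p the log2 difference passed at 0.85 by the exact test (adjusted p = 0.0734), 0.85 by DESeq2 (0.0214), 0.83 with the CPM filter (0.0776) and 0.93 without BTBR replicate 2 (0.0469), and ran from 0.70 to 0.93 with 1 mouse left out, with adjusted p from 0.0469 to 0.444. For miR-1981-5p it passed at −0.88 by the exact test (0.0756), −0.88 by DESeq2 (0.0175) and −0.90 with the CPM filter (0.0993), and ran from −1.01 to −0.80 with 1 mouse left out, with adjusted p from 0.118 to 0.385. The members' median was −0.24 with library size only and −0.50 to −0.39 with 1 mouse left out. No log2 difference of a member changed sign under any alternative. The ratios among miR-320-3p, miR-484 and miR-1839-5p, whose strains overlap, did change sign with 1 mouse left out, with log2 differences reaching 0.05 for miR-320-3p to miR-484, −0.05 for miR-320-3p to miR-1839-5p and −0.09 for miR-484 to miR-1839-5p, each without BTBR replicate 1. The deviations of same-numbered mice from their strain means correlated at 0.05, −0.07, −0.15 and −0.15. They were not compared with those of differently numbered mice, so whether the replicate numbers pair the mice was not settled. With the replicate block in the edgeR test, miR-1224-5p had 0.82 (adjusted p = 0.290) and miR-1981-5p −0.87 (0.304). Where not stated otherwise, the cause of these shifts was not tested. With 4 mice per strain and 51 to 243 reads for miR-1981-5p, counting error and the number of mice limit precision.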
